A study of Mus musculus with 2 samples.

Results

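The cells described here are synovial macrophages chosen for high transcript levels of *H2-Aa*, *Ccr2* and *Ciita*. They numbered 1096 of the 12956 barcodes in the data, 587 from β-glucan-treated mice and 509 from PBS controls. They were chosen by measured values, in several steps. A barcode was kept if it had 500 detected genes or more and no more than 10% of its UMIs from mitochondrial genes (10249 cells). A UMI is a molecular tag that counts 1 captured transcript. Of the kept cells, 7322 held at least 10 UMIs of the complement genes *C1qa*, *C1qb* and *C1qc*, which macrophages transcribe strongly, and fewer than 5 UMIs of the dendritic cell genes *Ccl17* and *Cd209a*. These are called C1q cells below. Each was scored on 7 sets of 3 genes as the mean z value of log-transformed UMIs per 10000, and a cell became a member where the set of *H2-Aa*, *Ccr2* and *Ciita* scored highest and reached 0.5. The other 6 sets were led by *Vsig4*, *Ednrb*, *Gpnmb*, *Olr1*, *Cav1* and *Aqp1*.

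The study asked whether β-glucan, a fungal cell wall polysaccharide known to train innate immune cells, alters the myeloid cells of joints that later become inflamed. Wild-type C57BL/6 mice aged 7 to 10 weeks received 1 mg β-glucan or PBS intraperitoneally 7 days before arthritis was induced. On day 17 after induction, CD45+CD11b+ cells were sorted from the synovium of the hind paws of 4 mice per group and pooled into 1 library per group. The series' design text and the methods give K/BxN serum transfer as the arthritis model, whereas the samples' treatment text gives an arthritogenic antibody cocktail followed by lipopolysaccharide. A total of 81611849 UMIs over 7196 barcodes was counted for β-glucan and 73874602 over 5760 for PBS, and 7 barcode sequences occurred in both libraries. Levels are given as CPM, the UMIs of a gene per 1000000 UMIs summed over the cells named, with β-glucan before PBS where 2 values are joined by "and". With 1 library per group no test between groups was possible. Every interval given here is an exact or Poisson-based 95% interval that covers counting error only, not the variation between mice, and pretreatment and library cannot be told apart.

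MHC class II molecules display peptides from engulfed proteins to CD4+ T cells. Their chains are held by the invariant chain Cd74 until H2-DM exchanges a remnant of it for a peptide, and the coactivator Ciita switches the genes of this pathway on together. Ccr2 is the receptor for the chemokine Ccl2 and guides monocytes out of the bone marrow. In the synovium, Ccr2+ MHC class II+ macrophages are known as a population of the sublining that receives blood monocytes, in contrast to the Vsig4+ cells of the lining.

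The members held the macrophage markers that no step of the selection had used. Of 11 macrophage markers, 4 belonged to the C1q genes or to another set of the rule. The other 7 reached 20 CPM in the members of both libraries, among them *Adgre1*, which encodes F4/80 (384 and 353 CPM), the receptors *Csf1r* (850 and 764) and *Mertk* (232 and 168), and *Apoe*, the most abundant (6211 and 4725). Monocyte genes gave a mixed picture. Of 9 monocyte markers, 1 reached 20 CPM in β-glucan members and 2 in PBS members, and *Ccr2* made up most of their sum. *Ly6c2*, which marks classical monocytes, stood at 2.16 and 1.42 CPM, and *Plac8* at 8.55 and 9.74. After each cell was thinned to 5000 UMIs, *Ly6c2* was detected in 0.904% of β-glucan members and 0.611% of PBS members. Other C1q cells had 0.258% and 0.283%, and T cells of the same libraries (under 3 C1q UMIs and at least 3 UMIs over *Cd3d*, *Cd3e* and *Cd3g*) had 7.37% and 13.4%. Of 7 genes at 20 CPM in both on a longer monocyte list, the lysozyme *Lyz1* was higher in the members (1206 and 1482 CPM against 538 and 511 in other C1q cells). *Itgal* (37.9 and 23.1 against 12.3 and 10.1) reached 20 CPM in the members alone and *Vcan* in the others alone. High *H2-Aa*, *Ccr2* and *Ciita* follow from the rule and are no check of the label.

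The counts of cells showed no gap at the score minimum. Members ranged from 0.505 to 3.97 with a median of 1.49 (the histogram of scores). In 113 β-glucan and 92 PBS cells the same set scored highest but below 0.5. The 37 members within 0.1 above the minimum held 1062 CPM of *H2-Aa*, 800 of *Ccr2* and 17.6 of *Ciita*. The 54 cells within 0.1 below it held 1057, 815 and 10.2 CPM of the same genes. Cells on either side of the minimum were close in *H2-Aa* and *Ccr2*. Scores of 0.5 or more also occurred in cells for which another set scored higher, and these are not members.

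**Figure D1:**
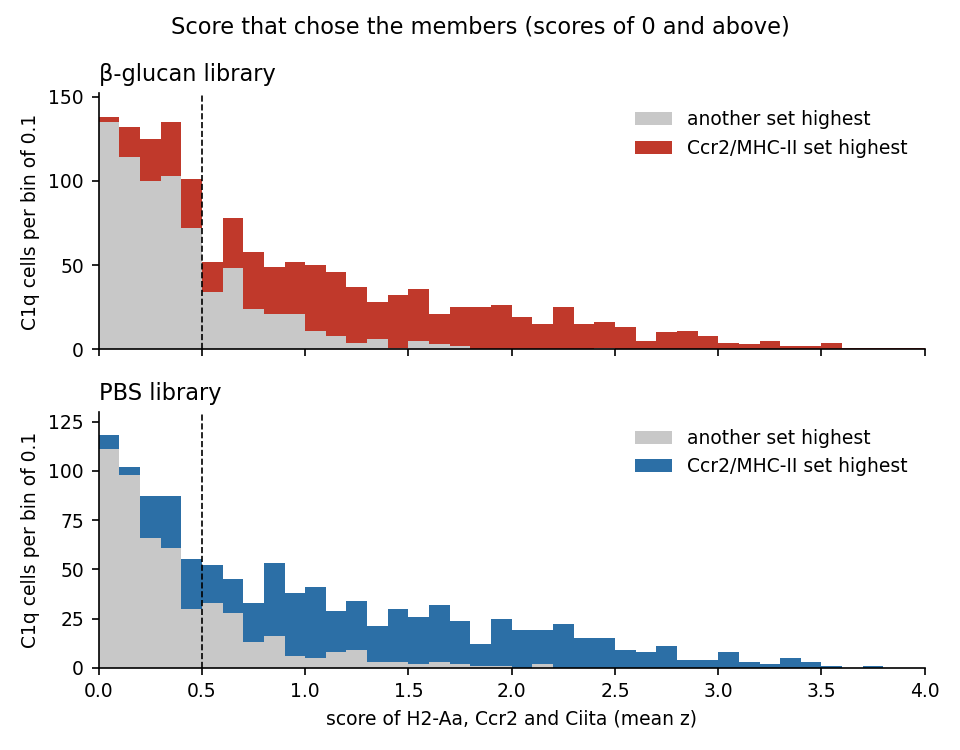
Number of C1q cells (y axis, bins of 0.1) by their score of *H2-Aa*, *Ccr2* and *Ciita* (x axis, mean z value, shown from 0) in the β-glucan library (upper) and the PBS library (lower). Coloured parts of bars are cells in which this set scored highest, grey parts cells in which another set did, and the dashed line is the minimum of 0.5, where the counts show no gap.

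The MHC class II genes separated the members clearly from the other C1q cells. *H2-Aa*, the α chain of I-A (GRCm39 chr17:34493404-34506798, minus strand), was part of the rule and stood at 4033 CPM in β-glucan members and 4727 in PBS members, against 201 and 325 in other C1q cells. *H2-Ab1*, its β chain partner (chr17:34476663-34488393, plus strand), was not part of the rule. It stood at 3572 and 4344 CPM in members against 189 and 312 in the others, a log2 ratio of 4.24 (4.21 to 4.27) for β-glucan and 3.80 (3.77 to 3.83) for PBS. Members of both libraries were thus far above the other cells of both. *H2-Eb1*, the β chain of I-E (chr17:34504236-34535648, plus strand), had 2900 and 3601 CPM against 125 and 208. C57BL/6 mice carry no working gene for the I-E α chain, so this chain is transcribed without its usual partner. *H2-Aa* and *H2-Eb1* overlap on opposite strands in this annotation, and how strand entered the counting is not given in the sources used here.

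The peptide-loading genes followed the same order. *Cd74*, the invariant chain, held 9959 CPM in β-glucan members and 12686 in PBS members, against 587 and 986 in other C1q cells. *H2-DMa* (chr17:34338515-34358958) held 409 and 513 against 63.2 and 78.7, and *H2-DMb1* (chr17:34372046-34379204) 350 and 463 against 32.0 and 46.3. These encode the chains of the peptide exchanger H2-DM, and their log2 ratios lay between 2.69 and 3.45. *H2-DMb1* has a near copy in *H2-DMb2*, as *H2-Eb1* has in *H2-Eb2*, and *H2-DMa* overlaps another gene on its strand, so reads may be divided uncertainly between them. Proteases and other enzymes of the same route did not set the members apart. *Ctss*, which trims the invariant chain, held 1866 and 2088 CPM in members and 2044 and 2122 in the others, and *Ifi30* and *Lgmn* had log2 ratios between -0.54 and 0.34. In the whole list of MHC class II molecules and loading, 5 of 11 measured genes exceeded a log2 ratio of 1 in both libraries and none was at or below -1. Across all 6833 genes measured, 116 (1.7%) were that much higher and 120 (1.76%) that much lower. Of the 6248 genes at 20 CPM in both members and others, 47 were higher and 54 lower. Because the rule used these same cells, this is a description of the members and not a test.

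Upstream of these genes, the members stood apart by *Ciita*, a gene of the rule. *Ciita* (GRCm39 chr16:10297923-10347694, plus strand) stood at 137 CPM in β-glucan members and 132 in PBS members, against 4.66 and 4.39 in the others, as the rule required. None of the 6 other genes of MHC class II transcription at 20 CPM in both members and others reached a log2 ratio of 1 in either direction. *Rfxap*, a subunit of the RFX complex that binds the X box and which reached it in the others alone, had log2 ratios of -0.27 and -0.06. *Nfya*, *Nfyb* and *Nfyc*, which form the CCAAT-binding factor, lay between -0.23 and 0.21. Of the interferon-γ pathway, which induces *Ciita*, none of 6 such genes was past the fold. Its receptor chain *Ifngr1* held 388 and 398 CPM in members against 270 and 286 in the others. Few genes were past the fold at all (47 higher and 54 lower of 6248), so nothing is read from these counts.

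Promoters of MHC class II genes are known to hold an X box and a Y box (CCAAT), to which RFX and the CCAAT-binding factor bind before Ciita joins them. RefSeq promoter windows (GRCm38.p6, 250 bases before to 50 after each start) were matched for 13 of 17 genes of the MHC class II list and 8 of 10 of the transcription list, without *H2-Ab1*, *Cd74* and *Ciita*. Stretches of 3 of them are shown because these genes are among the highest in the members, and because *H2-Eb1* and *H2-DMb1* show the spacing of both motifs. Capitals mark matches to the X box (a 14-base consensus, at most 2 mismatches over its fixed letters) and to CCAAT or its reverse ATTGG, each searched on both strands. *H2-Aa* lies on the minus strand at chr17:34287847-34287891, *H2-Eb1* on the plus strand at chr17:34305752-34305856, and *H2-DMb1* on the plus strand at chr17:34153073-34153154.
H2-Aa: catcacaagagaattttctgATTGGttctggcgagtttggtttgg
H2-Eb1: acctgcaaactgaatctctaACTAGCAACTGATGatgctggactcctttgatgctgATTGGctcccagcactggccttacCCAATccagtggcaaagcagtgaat
H2-DMb1: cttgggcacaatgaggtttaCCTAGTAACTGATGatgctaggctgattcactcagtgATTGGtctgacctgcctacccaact
*H2-DMb1* matched every fixed letter of the X box and *H2-Eb1* all but 1, and the gap from the X box to TGATTGG was 21 and 20 bases. An X box 10 to 40 bases before TGATTGG on the strand of the gene occurred in 27 of 32851 promoters (0.0822%). These included 5 of the 17 promoters of the MHC class II list (*H2-DMb1*, *H2-DMb2*, *H2-Eb1*, *H2-Eb2* and *H2-Ob*) and none of the 13 promoters of the transcription list. This spacing was chosen after the sequences had been seen. On its own, CCAAT on either strand occurred in 37.4% of all promoters and the X box letters in 22.9%. A match is a description of the letters and says nothing of binding in these cells.

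*Ccr2* and *Tmem176a*, the other labelled markers, were high in the members but less exclusive. *Ccr2* (GRCm39 chr9:123901982-123913594, plus strand), part of the rule, stood at 878 CPM in β-glucan members and 840 in PBS members, against 161 and 133 in the other C1q cells. *Tmem176a*, an endosomal cation channel gene, stood at 305 and 323 against 96.4 and 110, a log2 ratio of 1.66 and 1.56, and *Tmem176b* had 1.01 and 1.08. Among the other sets the *Gpnmb* set came closest, with 174 and 234 CPM of *Tmem176a*. It held 313 and 382 of *Tmem176b*, against 434 and 508 in the members. Thinned to 5000 UMIs, *Ccr2* was detected in 88.8% of β-glucan members (unthinned 93.9%) and 85.3% of PBS members (unthinned 91.9%). Of the other C1q cells 25.4% and 21.03% had a UMI, of T cells 61.1% and 58.0%, and of neutrophils (under 3 C1q UMIs and at least 50 UMIs over *S100a8* and *S100a9*), which should hold little of it, 10.8% and 8.82%. *H2-Ab1* was detected in 95.5% and 97.4% of thinned members, against 24.3% and 27.7% of other C1q cells, 12.6% and 17.6% of T cells and 29.7% and 14.7% of neutrophils. The neutrophil shares rest on 37 and 34 cells, with intervals of 15.9% to 47.0% and 4.95% to 31.1%, which hold the shares of other C1q cells, so these could not be told apart from neutrophils at this depth. Thinning left out 34 and 18 members with fewer UMIs. Median depths were 13826 and 15245 UMIs in members, 7696 and 9087 in the T cells, and 4258 and 4388 in the neutrophils.

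**Figure D2:**
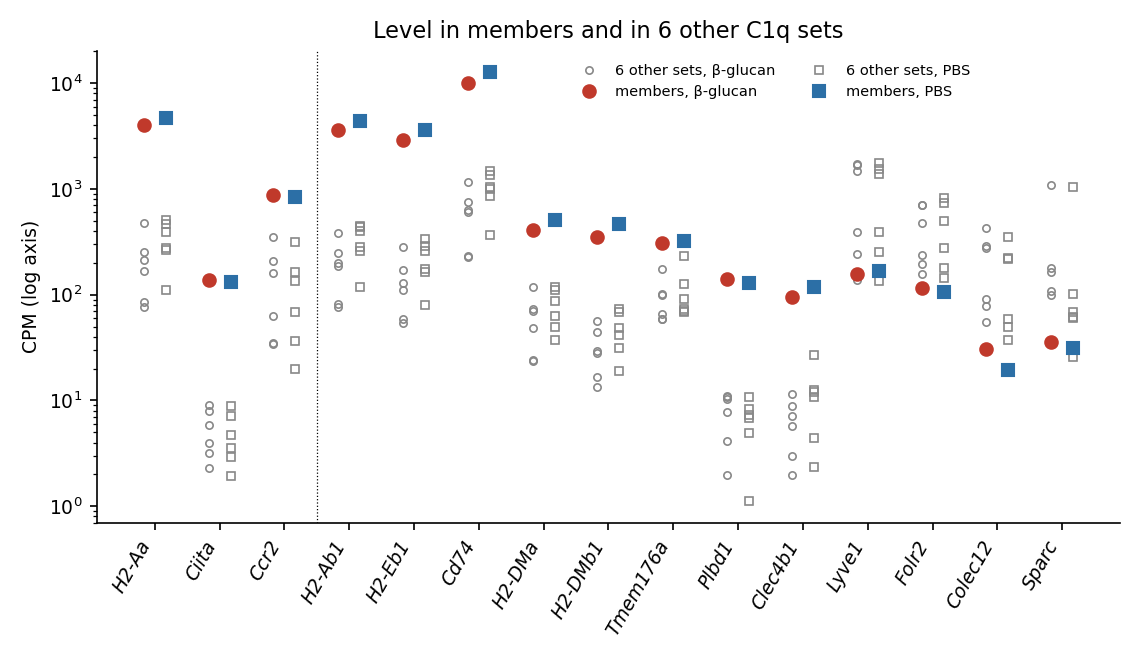
Level in CPM (y axis, log scale) of 15 genes in the members (filled symbols) and in each of the other 6 sets of C1q cells (open grey symbols), with circles for the β-glucan library and squares for the PBS library. The genes left of the dotted line made the rule; *H2-Ab1*, *H2-Eb1* and *Cd74* lie above all other sets in both libraries, and *Sparc* and *Colec12* near the bottom.

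Compared with single sets in place of all other cells, the members resembled the *Olr1* and *Gpnmb* sets most. The Pearson correlation over 4562 genes was 0.950 with the *Olr1* set, 0.948 with the *Gpnmb* set and 0.872 with the *Vsig4* set, where each point is a gene and all sets share the same 2 libraries. *H2-Ab1* stood at 249 CPM (β-glucan) and 447 (PBS) in the *Olr1* set and at 382 and 436 in the *Gpnmb* set, all far below the members. *Ccr2* was next highest in the *Olr1* set, at 350 and 316 CPM. *Apoe*, a lipid carrier, was highest in the *Gpnmb* set, at 13607 and 15619 against 6211 and 4725 in members. The *Olr1* set was close to the members (5839 and 4838), and the *Vsig4* set lower (3344 and 3024).

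Beyond MHC class II, the genes highest in the members over the other C1q cells were of several kinds. Among the 6833 genes measured in both libraries, *Ear2*, a ribonuclease of the eosinophil-associated family, had the highest ratio. It stood at 29.6 and 58.1 CPM against 0.494 and 0.681, with a UMI in 62 and 61 members. *Mucl1*, which reached 20 CPM in PBS members alone, had a higher ratio in that library (log2 ratio -0.01 and 8.71). *Plbd1*, which encodes a phospholipase B-like protein, had the highest log2 ratio among genes of at least 50 CPM outside the MHC class II genes. It stood at 140 CPM in β-glucan members and 128 in PBS members against 8.04 and 7.07 (log2 ratio 4.12 and 4.18), although 70.3% and 67.6% of thinned neutrophils also held a *Plbd1* UMI. *Clec4b1*, a C-type lectin, stood at 95.6 and 119 against 6.85 and 9.91. The secreted factor *Ndnf*, the orphan receptor *Gpr141*, the NF-κB regulator *Tnip3* and the non-coding *Gm15987* had log2 ratios between 2.56 and 3.68 in both libraries. *Retnla*, a gene of alternative activation, stood at 1008 and 2961 CPM against 192 and 589, but it was detected in 17.2% and 31.8% of members, of which 10 held 76.3% and 46.4% of its UMIs.

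Of 19 genes of conventional dendritic cells, 4 reached 20 CPM in both the members and the others, and of these the lectin *Mgl2* was higher (221 and 270 CPM against 46.1 and 61.7) and none was lower. Of all 6248 genes at 20 CPM in both, 47 were higher and 54 lower. A further 4 dendritic cell genes reached 20 CPM in the members alone, which fixes their direction. The integrin *Itgax*, which encodes CD11c, stood at 34.6 and 50.8 CPM in members against 3.12 and 7.07. *Batf3* (42.8 and 55.2 against 8.59 and 11.4), the receptor *Flt3* (37.2 and 31.0 against 9.26 and 9.63) and *Cd24a* were the others. *Mgl2* and *Flt3* were not particular to the members. The *Ednrb* set held 212 and 257 CPM of *Mgl2*, close to the members, and the *Gpnmb* set, next highest, 27.9 and 43.4. The *Cav1* set held 29.8 and 34.8 CPM of *Flt3*. The defining genes of type 1 dendritic cells were low in the members, *Xcr1* at 2.27 and 1.64 CPM and *Clec9a* at 8.45 and 3.06, though above the other C1q cells (*Clec9a* at 0.247 and 0.117). *Zbtb46*, which marks conventional dendritic cells more widely, stood at 12.8 and 8.10. Another 9 genes of the list were under 20 CPM, and *Ccl17* and *Cd209a* had been used to remove cells.

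Of 10 genes of T cell contact and co-stimulation at 20 CPM in both, 2 were past the fold. These were the surface antigen *Cd52* (614 and 725 CPM against 138 and 155) and *Slamf7* (110 and 97.5 against 26.0 and 22.6). The ICOS ligand *Icosl* (30.6 and 33.6 against 13.7 and 14.8) reached it in the members alone. *Cd80* and *Cd86*, which engage CD28, had log2 ratios between -0.23 and 0.22, and *Cd40* -0.67 and -0.74. Among adhesion genes at 20 CPM in both, *Itgb7* was higher, 1 of 10. Also higher were the receptor tyrosine kinase *Axl*, the lipase *Lpl* and properdin (*Cfp*). None of 12 genes of MHC class I presentation was past the fold. The same held for Fcγ receptors (10 genes), pattern recognition receptors (9), cytokines and their receptors (15), chemokine ligands (8), and immediate-early genes (17). Of all 6248 genes at 20 CPM in both, 47 were higher and 54 lower. Lists of this size would mostly hold none at that share, so nothing is read from these counts.

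Of 13 genes of resident macrophages at 20 CPM in both members and others, 5 were at or below a log2 ratio of -1 in both libraries and none was higher, with a median of -0.95. Of all 6248 such genes, 54 were that much lower and 47 that much higher, with a median of -0.04. The hyaluronan receptor *Lyve1* stood at 156 CPM in β-glucan members and 169 in PBS members against 900 and 882 in the others (log2 ratio -2.53 and -2.38). The folate receptor *Folr2* stood at 116 and 106 against 394 and 424, the matrix protein *Sparc* at 35.8 and 31.1 against 255 and 230, and the collectin *Colec12* at 30.8 and 19.5 against 183 and 142. *Gas6*, which bridges dying cells to Axl and Mertk, and *Cbr2* were lower too. Low levels were not particular to the members for all of these genes. *Gas6* stood at 183 and 146 CPM in members, but at 137 and 125 in the *Olr1* set and 130 and 113 in the *Cav1* set. *Lyve1* stood at 136 and 134 in the *Gpnmb* set, below the members. *Sparc* stood at 37.3 and 60.7 in the *Cav1* set and at 165 and 25.6 in the *Gpnmb* set. The *Vsig4* set held far more of it (1081 and 1054). *Folr2* and *Colec12* were lower in the members than in every other set. *Timd4*, *Fcna* and *Colec12* did not reach 20 CPM in the members of both libraries. The remaining genes furthest below the other cells were *Cacna1a*, *Fermt2*, *Cpne8*, *Vcan*, *Cspg4*, *Olfml3*, *Pls3*, *Pmepa1* and *Ltc4s*, whose log2 ratios lay between -3.52 and -1.84. *Spp1* and *Cd36* were lower as well.

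**Figure D3:**
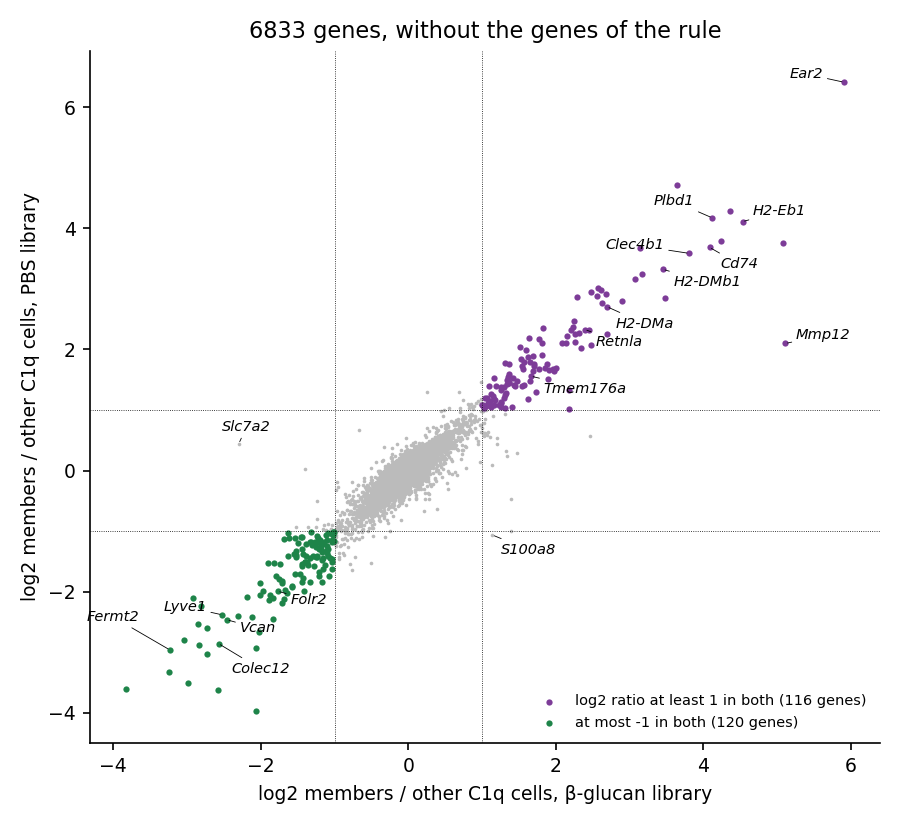
Log2 ratio of CPM in members over other C1q cells, β-glucan library on the x axis and PBS library on the y axis, 1 point per gene (6833 genes without those of the rule). Purple points (116) are at or above 1 and green points (120) at or below -1 in both libraries; *H2-Eb1*, *Cd74* and *Plbd1* lie at the upper right, *Lyve1* and *Colec12* at the lower left, and *S100a8* and *Slc7a2* off the diagonal.

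Members varied among themselves. *H2-Aa* was detected in 98.3% of β-glucan and 99.2% of PBS members, *Ccr2* in 93.9% and 91.9%, and *Ciita* in 67.3% and 70.9%. All 3 genes were detected in 356 and 319 members, and 1 gene alone in 7 and 3. From the lower to the upper quartile, β-glucan members held between 14.8 and 54.0 *H2-Ab1* UMIs per 10000 and PBS members between 17.5 and 63.6, with medians of 31.2 and 38.5. The quartiles of the libraries overlapped widely. The second-highest set was *Gpnmb* in 228 and 181 members, *Olr1* in 126 and 109, *Cav1* in 103 and 108, and *Vsig4* in 53 and 48. That second score was above 0 in 76.5% and 75.8% of members.

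When all C1q cells were clustered without the genes of the rule, the members fell into several clusters (the bar chart of clusters). Cluster 5, led by *Mmp12*, *Mucl1*, *Ear2* and *Cd226*, held 399 members, which were 78.5% of its cells. It took 32.5% of β-glucan members and 40.9% of PBS members. Its members held the most *H2-Ab1* of the 4 clusters with the most members (4866 and 5163 CPM) and 1096 and 975 of *Ccr2*. Cluster 1, led by *Gpnmb*, *Atp6v0d2*, *Fabp5* and *Apoe*, genes of lipid-handling macrophages, held 127 and 92 members with 3523 and 4425 CPM of *H2-Ab1*. Cluster 9, led by *Ccl8*, *Mgl2* and *Clec10a*, held 76 and 75 members. Its members had the most *Mgl2* of these 4 clusters (592 and 561 CPM), with *Lyve1* at 294 and 428. Cluster 2, led by *Nt5e*, *Cav1* and *Slco3a1*, held 34 and 31 members with 2037 and 2350 CPM of *H2-Ab1*.

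Some members fell in clusters led by genes of other cell types, and more did so in the β-glucan library. Clusters led by *Igkc* and *Cd79a* (B cell genes), *Il1r2* and *S100a8* (neutrophil genes), *Skap1* and *Bcl11b* (T cell genes), *Prg4* and *Col1a1* (stromal genes) and *Mcpt4* and *Cpa3* (mast cell genes) together held 78 β-glucan members (13.3%) and 24 PBS members (4.72%). Of all C1q cells, 6.34% and 2.79% lay there. Of these members, 53.8% and 66.7% were among the cells with the highest doublet scores of their library, against 10.6% and 7.27% of all members. The summed neutrophil markers stood at 747 CPM in β-glucan members and 93.7 in PBS members, with *S100a9* the most abundant (369 and 38.2). B cell markers summed to 374 and 303, with *Ighm* the most abundant (160 and 156), and mast cell and basophil markers to 179 and 27.3, with *Hdc* the most abundant (90.7 and 16.5). Of the neutrophil, B cell and mast cell lists 4 of 9, 5 of 9 and 3 of 8 genes reached 20 CPM in β-glucan members, and 3 of 9, 3 of 9 and 0 of 8 in PBS members. T cell markers summed to 111 and 73.0, with *Il7r* the most abundant, and stromal markers to 91.6 and 81.7, with *Pdpn* the most abundant. Genes at 0 in the first 3 lists numbered 0, 0 and 1 in β-glucan members and 1, 0 and 3 in PBS members.

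**Figure D4:**
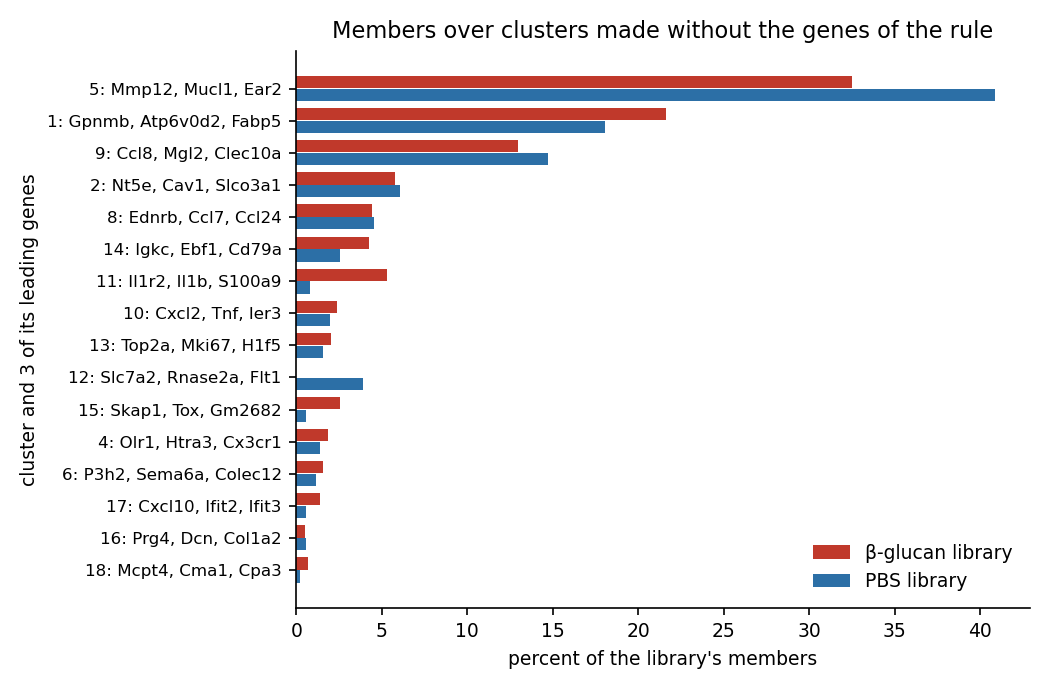
Percent of each library's members (x axis) in each cluster of C1q cells that held at least 5 members (y axis, cluster number and 3 of its leading genes), with red bars for the β-glucan library and blue bars for the PBS library. Cluster 5 is largest in both (32.5% and 40.9%); cluster 11 (*Il1r2*, *Il1b*, *S100a9*) is mostly β-glucan and cluster 12 (*Slc7a2*, *Rnase2a*, *Flt1*) holds PBS members alone.

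Cluster 12, with *Slc7a2*, *Rnase2a* and *Flt1* among its leading genes, held 92 cells, all from the PBS library. Of these, 20 were members (3.93% of the PBS members). They had 4963 CPM of *H2-Ab1* but 123 of *Ccr2* (59 UMIs), and 1100 of *Lyve1*. Their MHC class II level was thus like that of cluster 5. Their *Ccr2* level was close to that of the other C1q cells of the PBS library (133 CPM). For the genes furthest apart between the libraries, values without these clusters are given below.

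The members made up a smaller share of C1q cells in the β-glucan library. They were 587 of 4242 (13.8%, 12.8 to 14.9) after β-glucan and 509 of 3080 (16.5%, 15.2 to 17.9) after PBS. As a share of all kept cells they were 10.3% (9.53 to 11.1) and 11.2% (10.3 to 12.1), and these intervals overlap. Without the clusters of other cell types and cluster 12, the shares of C1q cells were 12.8% and 16.02%. The share was lower in the β-glucan library under every setting tried, but without members holding 2 or more UMIs of other lineages' markers it was 3.99% (3.39 to 4.66) and 4.14% (3.42 to 4.96), which overlap. The intervals also overlapped at a score minimum of 1, in cells thinned to 5000 UMIs, with z values taken within each library and with no filter on cells. With 1 pool of 4 mice per group, the variation between mice in this share is unknown.

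The 5 MHC class II genes that stood out in the members were lower after β-glucan. The sum of *H2-Ab1*, *H2-Eb1*, *Cd74*, *H2-DMa* and *H2-DMb1* was 17190 CPM in β-glucan members and 21607 in PBS members, a log2 ratio of -0.33 (-0.34 to -0.32). Each gene alone was lower, from -0.28 for *H2-Ab1* to -0.40 for *H2-DMb1*, and *H2-Aa* was at -0.23. Over the 11 measured genes of the MHC class II list outside the rule the median was -0.20, none was past the fold and 4 lay above 0 (*Lgmn* at 0.29, *Marchf1* at 0.24, *Cd83* at 0.24 and *Ctsl* at 0.14). *Ciita* (137 and 132 CPM) and *Ccr2* (878 and 840) both had log2 ratios of 0.06. Members of both libraries had to pass 1 score minimum on *H2-Aa*, *Ciita* and *Ccr2*, so the ratios of these 3 genes are constrained by the rule and nothing is read from them. The 5 genes of the sum are switched on together with *H2-Aa* by Ciita, so the rule may constrain their ratios too. How far it does so was not tested. The fold of 0.5 used for counting was one that 197 of 6900 genes (2.86%) exceeded upwards and 84 (1.22%) downwards. With TMM scaling the same counts were 146 and 106, and with members of both libraries paired on how much of their RNA came from genes spanning at least 100 kb they were 101 and 77. The median of all genes was 0.03. These genes reached 20 CPM in members of at least 1 library, which fixes the direction of many that reached it in 1 alone. Where genes had to reach it in both libraries, without the genes of the rule, 121 of 6463 (1.87%) were higher and 58 (0.897%) lower, and the lists below are counted in this way.

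The size of this difference depended on which members were compared. Within cluster 5 the log2 ratio of the sum was -0.13, within cluster 9 -0.06, within cluster 2 -0.22 and within cluster 1 -0.36. The genes of the sum did not all go 1 way within cluster 9. There *H2-Eb1* was higher after β-glucan (3207 and 3093 CPM), *H2-Ab1* was close (3626 and 3614) and *Cd74* was lower (10262 and 11109). Some smaller clusters went the other way. In cluster 13, led by *Top2a* and *Mki67*, *H2-Ab1* was higher (4480 and 3786) and *Cd74* close (11039 and 11086). In cluster 8, led by *Ednrb* and *Ccl7*, the 26 and 23 members held more *H2-Ab1* (2254 and 1863 CPM) and *Cd74* (7233 and 6098) after β-glucan. In the cluster led by *Igkc* and *Cd79a*, *Cd74* stood at 7171 and 6571. *Cd74* was lower in cluster 10, led by *Cxcl2* and *Tnf* (4515 and 8165), and in the cluster led by *Il1r2* and *S100a8* (6193 and 8149). Without the clusters of other cell types and cluster 12 the log2 ratio of the sum was -0.22, and with the pairing on long genes it was -0.16. Such genes gave 19.1% of the UMIs of β-glucan members and 17.2% of those of PBS members. Long genes as a whole lay higher in the β-glucan members: the median log2 ratio was 0.15 over 1159 genes of 100 kb or more and -0.08 over 1165 genes under 10 kb. The 5 MHC class II genes of the sum each span under 100 kb. The part of gene span in their difference was not tested beyond this pairing. In the other C1q cells, whose levels are much lower, the same sum was 997 and 1631 CPM (log2 ratio -0.71).

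Related lists went different ways. Over all 6463 genes at 20 CPM in both libraries, 1.87% were higher past the fold and 0.897% lower. The median of all genes was 0.03. Of 6 measured genes of MHC class II transcription, 6 lay above 0 and none was past the fold, with a median of 0.12, and of 4 interferon-stimulated genes 2 lay above 0. Of 13 MHC class I genes, 1 had a log2 ratio above 0, and the median was -0.24. *H2-D1*, a heavy chain, stood at 1293 CPM in β-glucan and 1626 in PBS members (-0.33), *H2-K1* at 598 and 708 (-0.24), and the light chain *B2m* at 1141 and 1321 (-0.21). Only *H2-T23*, which encodes the non-classical molecule Qa-1, was past the fold (85.8 and 139, -0.69). Of 7 measured genes of the interferon-γ pathway, the transcription factor *Irf1* was lower (30.7 and 45.1, -0.55) and none was higher. The guanylate-binding proteins *Gbp2* (11.3 and 33.4 CPM) and *Gbp3* (15.05 and 21.6) reached 20 CPM in PBS members alone. *Cxcl9*, a chemokine induced by interferon-γ, was 25.7 in β-glucan and 1.75 in PBS members, but 5 and 4 members held all its UMIs.

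**Figure D5:**
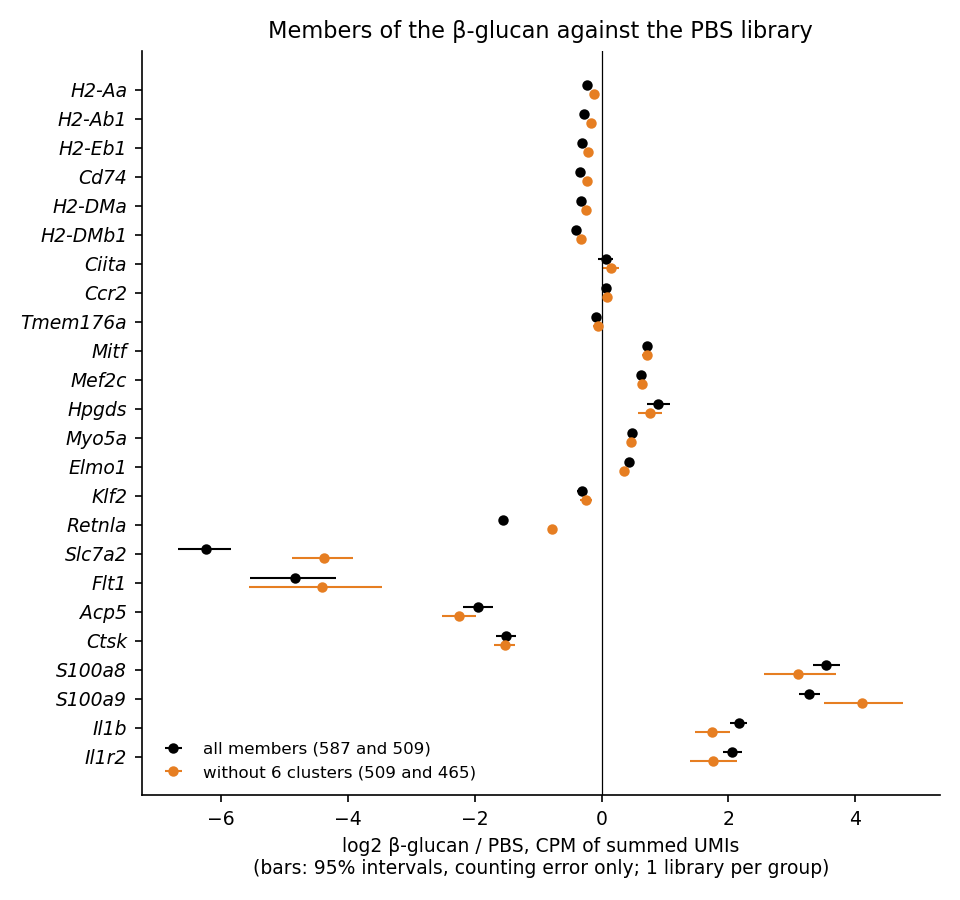
Log2 ratio of CPM, β-glucan over PBS members (x axis), for 24 genes (y axis). Points and bars are values with 95% intervals of counting error, in black for all members and in orange without the clusters led by genes of other cell types and cluster 12; the MHC class II genes lie left of 0 in both, *Mitf*, *Mef2c* and *Hpgds* right of 0, and *Slc7a2* and *Flt1* furthest from 0.

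Of the 16 genes that the study compared between its groups, most had higher levels in β-glucan members. The study chose them on these libraries, so their direction is not independent evidence. A log2 ratio above 0 was found for 15 of 16, and 4 were past the fold upwards. Over all 6463 genes at 20 CPM in both libraries, 1.87% were past it upwards and 0.897% downwards. The median of all genes was 0.03. Genes of 100 kb or more made up 6 of the 16, such as *Mitf* (214 kb), *Mef2c* (163 kb) and *Elmo1* (518 kb), while *Klf2*, the only 1 of the 16 below 0, spans 2.78 kb. Paired on long genes, the log2 ratio was 0.51 for *Mitf*, 0.44 for *Mef2c*, 0.65 for *Hpgds*, 0.26 for *Myo5a* and 0.19 for *Elmo1*. With that pairing 12 of 16 lay above 0 and 2 were past the fold. The part of gene span in these values was not tested further. *Mitf*, a transcription factor of the MiT/TFE family active in osteoclasts and lysosome biogenesis, stood at 584 CPM in β-glucan and 357 in PBS members (0.71, 0.65 to 0.77). It was detected in 86.8% and 70.3% of thinned members (unthinned 94.7% and 90.6%), against 24.3% and 23.5% of thinned neutrophils. In other C1q cells the *Mitf* log2 ratio was 0.77, so the difference was not particular to the members. *Mef2c*, a transcription factor, stood at 566 and 369 (0.62), and *Hpgds*, the haematopoietic prostaglandin D synthase, at 80.1 and 43.0 (0.90). *Nr4a1*, an orphan nuclear receptor, stood at 75.7 and 52.4 (0.53), which fell to 0.05 without the clusters of other cell types, and in other C1q cells it was at -0.50. *Klf2* stood at 221 and 273 (-0.31), and at -0.36 in other C1q cells. *Myo5a* (626 and 447), *Elmo1* (804 and 595), *Cx3cr1* (229 and 168) and *Map3k5* (223 and 172) had ratios between 0.38 and 0.49, which did not reach the fold. *Cx3cr1* reached it without the clusters of other cell types (0.52), but not without cluster 12 as well (0.46). Without members holding other lineage markers it was at 0.98. *Elmo1* overlaps another gene on its strand.

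Of 13 measured genes of resident macrophages, 3 were higher past the fold in β-glucan members and none was lower. The median was 0.22 and 11 lay above 0. *Lyve1* stood at 156 and 169 CPM (-0.11, -0.22 to -0.01), and its log2 ratio turned to 0.34 (0.21 to 0.46) without the clusters of other cell types and cluster 12. The transglutaminase *F13a1* stood at 1011 and 666 CPM (0.60), the ubiquitin ligase *Wwp1* at 461 and 290 (0.67) and the scavenger receptor *Stab1* at 242 and 169 (0.52). *Colec12* (30.8 and 19.5) reached 20 CPM in β-glucan members alone. Of 20 lineage transcription factors, *Zeb2* (3093 and 2181), *Irf8* (122 and 85.5), *Mitf* and *Mef2c* were higher, and *Cebpb* (234 and 332) and *Bhlhe40* (68.0 and 110) lower. Among receptors for chemokines, *Ccr1* (117 and 77.8) was higher, 1 of 7, and among pattern recognition receptors *Tlr2*, *Tlr13* and *Clec4n* were higher, 3 of 10. Of 9 chemokine ligands, *Ccl8* was higher and *Ccl2*, the ligand of Ccr2, was lower (45.2 and 64.3, -0.51). None of 10 Fcγ receptor genes, 11 co-stimulation genes or 6 complement genes was past the fold. Over all 6463 genes counted in this way 1.87% were higher and 0.897% lower, so nothing is read from these counts.

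Several of the genes furthest lower in β-glucan members had most of their PBS UMIs in few members. *Slc7a2*, a transporter of cationic amino acids, stood at 5.05 CPM in β-glucan members and 383 in PBS members. In the PBS library 74.5% of the *Slc7a2* UMIs of members lay in the 20 members of cluster 12. *Rnase2a* had 1 UMI in β-glucan members and 873 in PBS members (-9.86, -15.16 to -7.37), 80.5% of these in that cluster. It belongs, like *Ear2*, to a family of near copies between which reads may be divided uncertainly. The VEGF receptor *Flt1* stood at 2.06 and 58.6. Without that cluster and the clusters of other cell types, the log2 ratio was -4.38 for *Slc7a2*, -7.23 for *Rnase2a* and -4.41 for *Flt1*. In the other C1q cells, which include the rest of cluster 12, the log2 ratios were -3.50, -7.12 and -2.94. *Mucl1* differed in another place: 98.9% of its 809 UMIs in PBS members lay in cluster 5, and 9 members held them all. Its log2 ratio without those clusters was -6.41, whereas in other C1q cells it was 2.14 (1.099 to 3.35). *Retnla* stood at 1008 and 2961 (-1.55, and -1.62 in other C1q cells), with 37.4% of the PBS UMIs in cluster 12 and 58.7% in cluster 5. It was detected in 11.8% and 24.4% of thinned members, against 5.41% and 17.6% of thinned neutrophils (PBS interval 6.76% to 34.5%). Without cluster 12 and the clusters of other cell types it was at -0.78. Within clusters 5 and 8 it was lower after β-glucan (2331 and 3525 CPM, 19.5 and 1571). Within clusters 9 and 1 it was higher (1434 and 70.5, 60.8 and 24.4). *AA467197* (17.5 and 98.5, with a UMI in 20.6% of PBS members) and the elastase *Mmp12* (29.6 and 64.8, -1.13) were lower too, at -1.64 and -1.24 without those clusters. With pairing on long genes *Mmp12* was at -0.18, which does not reach the fold.

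Of 6 measured osteoclast genes, *Ctsk* was lower and *Mitf* was higher. Over all 6463 genes counted in this way 1.87% were higher and 0.897% lower, so nothing is read from these counts. A pair of others on the list, *Acp5* and *Mmp9*, reached 20 CPM in PBS members alone. The phosphatase *Acp5* stood at 19.99 CPM in β-glucan and 77.1 in PBS members (-1.95), where 10 members held 90.8% of the PBS UMIs. The bone-degrading protease *Ctsk* stood at 51.0 and 145 (-1.51), where 10 members held 90.5% of the PBS UMIs, and the gelatinase *Mmp9* at 15.5 and 39.6 (-1.36), where 10 held 99.7%. Without the clusters of other cell types and cluster 12, *Mmp9* was at -4.20. The log2 ratio of *Acp5* turned to 0.73 with a score minimum of 1 and to 0.64 under a stricter filter of 1000 genes and 5% mitochondrial UMIs. That of *Ctsk* turned to 3.58 without members holding markers of other lineages.

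The 10 genes furthest higher in β-glucan members included *S100a8*, *S100a9* and *Csf3r* of the neutrophil list and *Hdc* of the mast cell and basophil list. *S100a8*, *S100a9* and *Csf3r* were the only neutrophil markers that reached 20 CPM in both libraries. No mast cell or basophil marker did so: *Hdc*, *Cpa3* and *Mcpt4* reached it in β-glucan members alone, so no count is read from them. Without the clusters of other cell types and cluster 12, *Cpa3* turned to -1.19 and *Mcpt4* to -0.80, with levels under 3 CPM in both libraries. *S100a8*, a calcium-binding protein abundant in neutrophils, stood at 263 CPM in β-glucan and 22.5 in PBS members (3.54, 3.34 to 3.75), and 90.1% of the β-glucan UMIs lay in clusters led by genes of other cell types. *S100a9* stood at 369 and 38.2, with 89.1% there. The cytokine *Il1b* stood at 276 and 61.8 (2.16), with 82.1% there, and its decoy receptor *Il1r2* at 196 and 47.0 (2.06), with 86.7% there. Without those clusters and cluster 12, the log2 ratio was 3.10 for *S100a8*, 4.10 for *S100a9*, 1.74 for *Il1b* and 1.76 for *Il1r2*, over far fewer UMIs. The values also moved with the choice of members, from 1.61 at a score minimum of 0.25 to 6.14 without the highest doublet scores for *S100a8*, and from 1.57 to 6.82 for *S100a9* under the same settings. The cystine transporter *Slc7a11* (55.9 and 5.80), the itaconate enzyme *Acod1* (52.7 and 8.76), the histamine enzyme *Hdc* (90.7 and 16.5), *Mxd1*, the receptor *Csf3r* and *Sorl1* were the other genes of this group. Without those clusters the log2 ratio was 2.32 for *Slc7a11*, 2.91 for *Acod1*, 2.86 for *Hdc*, 0.80 for *Mxd1*, 0.77 for *Csf3r* and 0.44 for *Sorl1*. Among other C1q cells the log2 ratio was 1.34 for *S100a8*, 1.41 for *S100a9*, 1.07 for *Il1b* and 1.07 for *Il1r2*. There it was 1.01 for *Slc7a11*, 0.58 for *Acod1*, 0.52 for *Mxd1*, 0.61 for *Csf3r* and 0.77 for *Sorl1*, but 0.07 for *Hdc*. Apart from *Hdc*, the higher levels after β-glucan were thus not particular to the members. The part of neutrophil transcripts in these values was not tested.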

How the data were processed

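The deposited files hold raw UMI counts per gene and barcode, which the authors made with Cell Ranger 7.0.0 from 10x Genomics 3′ libraries. The methods give a GRCm39 reference with Ensembl annotation, and the submitters' processing notes also name mm10. Whether intronic reads were counted is not given in the sources used here. No file holds cell types. The cell filter (500 genes, 10% mitochondrial UMIs) follows the methods. The study gives a number of cells equal to the 12956 barcodes in the files, whereas the filter left 10249. No column of values was left out.

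Members were found as described above, with z values taken over the C1q cells of both libraries together. Members and gene lists were chosen with earlier results of these data known. The counts were summed per library over members or other C1q cells and divided by the sum of all UMIs (CPM). Genes were measured at 20 CPM or more, in members or others of both libraries for the first comparison and in members of either library for the second. Lists were counted over genes at 20 CPM in both groups compared, without the genes of the rule. The genes of the 7 sets and of the C1q and *Ccl17*/*Cd209a* steps were left out of the first comparison. Ratios of 2 sums carry conditional binomial intervals, levels Poisson intervals and shares Clopper-Pearson intervals. A gene was past the fold at a log2 ratio of 1 in both libraries, or of 0.5 between groups. Genes were named if they belonged to 1 of 22 pathway lists and 14 marker lists, or had the 12 highest or lowest ratios of members over others, or the 10 highest or lowest of β-glucan over PBS, at 50 CPM or more, or were compared by the study. Others, such as *Ear2*, were named after their values were seen.

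Clusters were made with scanpy 1.11.5 and leidenalg 0.10.2 (resolution 1) without the genes of the rule. TMM factors came from edgeR 4.0.16 in R 4.3.3, and everything else from Python 3.11.15. Scrublet called 0 and 2 doublets, which is too few to be of use, so no doublet was removed; the highest scores, at 0.8% per 1000 barcodes, were left out as an alternative. Promoter sequences and starts are those of RefSeq (GRCm38.p6), and gene positions those of the GRCm39 annotation. The steps were tested on simulated data.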

Additional observations from a re-analysis of the deposited data

Results flagged for a closer look

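In 3 flagged genes the members lay above the other C1q cells in one library and below them in the other, and this difference was not tested. *Hdc* had a log2 ratio of members over others of 1.40 after β-glucan and -0.99 after PBS. *S100a8* had 1.14 and -1.07, and 90.1% of its UMIs in β-glucan members lay in clusters led by genes of other cell types. *AA467197* had -0.67 and 0.66. Further genes changed sign between the libraries as well, among them *Slc7a2* (-2.30 and 0.45), *S100a9* (1.39 and -0.47) and *Nr4a1* (0.39 and -0.64).

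Among barcodes outside the cell filter that met the C1q and *Ccl17*/*Cd209a* limits, 27 of 154 β-glucan cells (17.5%, 11.9 to 24.5) and 8 of 138 PBS cells (5.80%, 2.54 to 11.1) met the rule of the members. These cells entered only the share of members with no filter on cells, which was 13.99% in the β-glucan and 16.2% in the PBS library.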

How the results depend on the processing

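No paired analysis was possible because each group was 1 library. The share of members was lower in the β-glucan library under every setting tried. At score minimums of 0.25, 0.75 and 1 it was 15.6%, 12.3% and 10.5% of C1q cells in the β-glucan library and 18.7%, 15.03% and 12.5% in the PBS library. Leaving out members with 2 or more UMIs of B cell, T cell, neutrophil or stromal markers removed 833 of 1096 members (76.0%) and left 3.99% and 4.14%. Settings that leave out clusters or use cluster 5 alone were chosen after seeing the data. Without the clusters led by genes of other cell types the share was 12.8% in the β-glucan library, also with cluster 12 left out.

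*H2-Ab1*, *H2-Eb1* and *Cd74* were higher after β-glucan within cluster 8, and *H2-Eb1* within cluster 9, so the direction did not hold in every cluster. Under every setting tried, the summed MHC class II log2 ratio stayed below 0. It was -0.34 at a score minimum of 1, -0.31 under a cell filter of 1000 genes and 5% mitochondrial UMIs, -0.38 with TMM scaling, -0.27 with equal weight per cell, -0.26 with cells thinned to 5000 UMIs, -0.30 without the highest doublet scores, -0.16 without members holding other lineage markers, -0.16 with pairing on long genes (443 members of each library), -0.23 without the clusters of other cell types, -0.22 without cluster 12 as well, and -0.13 in cluster 5.

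Genes past the fold between groups (197 higher, 84 lower) numbered 316 and 176 in thinned cells, 633 and 372 without members holding other lineage markers, 2052 and 1497 with no minimum level, 88 and 52 at 50 CPM, and 121 and 58 at 20 CPM in both libraries without the genes of the rule (chosen after seeing the data). Pairing on long genes gave 101 and 77. Members over other C1q cells gave 829 higher and 569 lower with no minimum level, and 56 and 62 at 50 CPM. *Acp5* turned to 0.73 at a score minimum of 1, 0.64 under the stricter cell filter and 0.46 with pairing on long genes. *Ctsk* turned to 3.58 without members holding other lineage markers. The causes were not tested. *Mitf* ranged from 0.51 to 0.81. The 1 library per group is the limit on every difference between groups.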

Other observations

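Cell cycle genes showed in a small part of the members. Of C1q cells in the cluster led by *Top2a* and *Mki67*, 12 were β-glucan members and 8 were PBS members, which were 2.04% and 1.57% of the members of each library. The 10 cycling markers summed to 385 CPM in β-glucan members and 307 in PBS members, against 149 and 230 in other C1q cells. A cluster led by *Cxcl10*, *Ifit2* and *Ifit3*, which are induced by type I interferon, held 8 and 3 members (1.36% and 0.589%).

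Ribosomal protein genes took a larger part of the UMIs of members than of other C1q cells, 9.64% against 7.52% in the β-glucan library and 9.84% against 7.64% in the PBS library. Mitochondrial UMIs were alike, with medians of 3.12% and 3.24% in members and 3.16% and 3.37% in the others. Members of the *Gpnmb* cluster held more *Apoe* than the remaining members, 13850 against 3940 CPM over both libraries. Its *Cxcl9* level was 78.7 against 2.08 CPM, which few cells carried.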
